A study of Mus musculus with 6 samples.

Results

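The matrix metalloproteinases (MMPs) and tissue inhibitors of metalloproteinases (TIMPs) followed here were 9 genes chosen by name, Mmp2, Mmp3, Mmp9, Mmp10, Mmp13, Mmp14, Timp1, Timp2 and Timp3, out of 52636 genes counted. All 9 were found in the count table. Their levels were compared across 8 annotated cell types, 9 fibroblast sub-clusters and both genotypes in 25428 single cells. The cells were grown in culture from 2 tissues at the back of the eye, the choroid, a vascular layer, and the retinal pigment epithelium (RPE), a sheet of pigmented cells that supports the photoreceptors. All mice were male, on the C57BL/6J strain and 12 to 16 months old. The 3 control samples were Dram2 wt/wt and the other 3 were Dram2 ko/ko, which carry a CRISPR/Cas9 deletion in the Dram2 gene in the germline, and so in every cell type. Libraries were made with the 10x 3′ v2 kit, which counts unique molecular identifiers (UMIs) near the 3′ ends of polyadenylated RNA, so that the Dram2 count does not check the deletion. Nothing in the sources used here says whether each sample was 1 animal or 1 culture, and p-values measure the spread between these samples only.

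Each sample held 2140 to 6648 cells and 96808998 to 122746184 UMIs, and the median cell held 16453 UMIs in Dram2 ko/ko replicate 2 and 47373 in Dram2 ko/ko replicate 1, the lowest and highest of the 6. Dram2 ko/ko replicate 3 was the only sample of batch 2, as the labels name it. The annotated types were checked against marker genes. Most carried their markers, but the cells annotated Pericyte held the Schwann cell genes Sox10 (178.8 CPM) and Ngfr and, of 6 pericyte genes listed, Cspg4 at 198.7 CPM (48.5 CPM in the next type), Rgs5 at 7.79 and Notch3 at 1.86 CPM, with Kcnj8, Higd1b and Ndufa4l2 at 0. They are called Pericyte-annotated cells here. Of 7 RPE genes listed, 2 reached 10 CPM in RPE cells, Otx2 (87.4 CPM) and Krt18 (710.3 CPM). The visual cycle enzyme Rpe65 had only 0.69 CPM there, and Best1 had 0.196 CPM, less than in Fibroblast (0.760 CPM). CPM is a gene's UMI count scaled to 1 fixed total for every sum of cells, so that values compare across sums of different depth. Cells of sub-cluster 8 had almost only mitochondrial UMIs and are left out of the sub-cluster orders below. All 168 of them were annotated Fibroblast-like and stay in the sums of that type (15.0% of its cells). The median Fibroblast-like cell held 4825 UMIs, against 26108 in Fibroblast. The part of these cells and of this depth in the Fibroblast-like levels was not tested.

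MMPs are zinc-dependent enzymes that cut proteins of the extracellular matrix. Most are secreted as inactive precursors, Mmp14 is anchored in the cell membrane, and TIMPs bind the active enzymes and block them. In the choroid and RPE the balance of both shapes Bruch's membrane, the matrix sheet between the layers, and Timp3 is the inhibitor held in that sheet. Mmp2 and Mmp9 are gelatinases, Mmp3 and Mmp10 are stromelysins, and Mmp13 is an interstitial collagenase.

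Mmp3, Mmp10 and Mmp13 lay on mouse chromosome 9, at chr9:7445822-7455975, chr9:7502352-7510240 and chr9:7272514-7283331 (GRCm38, + strand). They belonged to a run of 10 MMP genes over 427 kb, but none was next to another. Mmp12 and Mmp1b lay between Mmp13 and Mmp3, and Mmp1a between Mmp3 and Mmp10. The other members stood alone, Mmp2 at chr8:92827291-92853420, Mmp9 at chr2:164940780-164955850, Mmp14 at chr14:54431612-54445364, Timp1 at chrX:20870166-20874735 and Timp3 at chr10:86300372-86349506, all on the + strand, and Timp2 at chr11:118301069-118355740 on the − strand. The 150 bases before the transcription start of these 3 genes are shown for a reason. Each gene was detected more often in Fibroblast cells that held another of the 3 than in cells that did not. Capitals mark TGAGTCA or its reverse complement TGACTCA, the sequence that AP-1 (a dimer of Fos and Jun proteins) is known to bind, and TATAAA, the TATA box. The windows were chr9:7445672-7445821, chr9:7502192-7502341 and chr9:7272364-7272513 (RefSeq, GRCm38.p6, + strand).
Mmp3: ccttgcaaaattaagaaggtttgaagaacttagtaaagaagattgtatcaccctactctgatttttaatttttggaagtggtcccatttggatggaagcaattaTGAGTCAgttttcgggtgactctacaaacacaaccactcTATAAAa
Mmp10: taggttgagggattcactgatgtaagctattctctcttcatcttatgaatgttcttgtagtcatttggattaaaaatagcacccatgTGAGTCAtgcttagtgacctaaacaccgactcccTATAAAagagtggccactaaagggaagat
Mmp13: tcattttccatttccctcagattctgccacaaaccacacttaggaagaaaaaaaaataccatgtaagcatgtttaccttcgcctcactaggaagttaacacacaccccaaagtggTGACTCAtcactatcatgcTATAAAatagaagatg

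The AP-1 letters began 46 bases before the start in Mmp3, 63 bases in Mmp10 and 35 bases in Mmp13, where they stood on the other strand. TATAAA began 7, 29 and 16 bases before the start. In windows from 250 bases before to 50 bases after the start, searched on both strands for the AP-1 letters and on the gene's strand for TATAAA, 1709 of 32851 RefSeq windows (5.20%) held the AP-1 letters and 205 (0.624%) held both. Mmp14, Timp1, Timp2 and Timp3 held neither. No window was at hand for Mmp2 and Mmp9. Of the run's other genes, the windows of Mmp1a and Mmp1b and 1 of 2 windows each of Mmp12 and Mmp7 also held both. Mmp20 held TATAAA alone, and Mmp8 and Mmp27 held neither. A match in these letters is a description of the window and does not show that a protein is bound there.

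Mmp2, the gelatinase that Mmp14 activates at the cell surface, was counted in most stromal types. Its mean level was 247 ± 26.5 CPM in Pericyte-annotated cells (SD, n = 6) and 174 ± 25.7 CPM in Fibroblast cells, the next type, and these did not overlap (lowest Pericyte-annotated sample 221 CPM, highest Fibroblast sample 207 CPM). Fibroblast proliferating cells (156 CPM), Endothelial cells (146 CPM) and Myeloid cells (121 CPM, n = 4) followed with overlapping samples. Fibroblast 2 had 102 ± 18.4 CPM, and its samples lay above all Fibroblast-like samples (48.7 ± 14.4 CPM). RPE was lowest at 33.1 ± 13.0 CPM, and overlapped Fibroblast-like. The sums of other types also held fibroblast genes. All 7 fibroblast genes listed came to 4979 CPM in Fibroblast, 5747 in Pericyte-annotated cells, 3104 in Myeloid, 1105 in Endothelial and 650 in RPE, with none of the 7 at 0. In Pericyte-annotated cells Col1a1 (1729 CPM) and Col1a2 (3682 CPM) made up most of the sum, and the other 5 genes, Dcn (51.8 CPM) and Mgp (271 CPM) among them, were lower than in Fibroblast. Myeloid cells held Mgp at 1777 and Dcn at 458 CPM beside their own Lyz2 (10629 CPM). The part of this in the Mmp2 level of those types was not tested. Reads from a 3′ end can be shared with other genes, but no run of the last 400 bases of Mmp2 long enough to be found in every case (61 bases) occurred in another gene.

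Mmp14 followed a similar order, with 280 ± 78.0 CPM in Pericyte-annotated cells, 189 ± 15.6 CPM in Fibroblast, 187 ± 14.6 CPM in Fibroblast proliferating and 171 ± 12.8 CPM in Fibroblast 2. Samples of these 4 types overlapped each other in that order. Endothelial cells had the lowest level, 39.5 ± 13.0 CPM, which overlapped RPE at 67.1 ± 31.8 CPM. The last bases of Mmp14 share runs of 31 bases or more, in either orientation, with 356 other genes. Its count may therefore be uncertain, and this was not tested. The gene most like Mmp2 over the 46 sums of a sample and type was Fkbp7 (Pearson r = 0.92 of log2(CPM + 1)), followed by Nid1 and Col5a2 (both r = 0.90), matrix or matrix-folding genes, and Mmp14 was most like Lama2 (r = 0.88), Col6a2 and Oxct1. These sums share their samples and types, so r is a description.

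The inhibitors differed in the order of types. Timp1 was highest in Fibroblast 2, with 7273 ± 816 CPM, and its lowest sample there (6316 CPM) lay above the highest sample of Fibroblast proliferating (4954 CPM), the next type. Fibroblast cells had 3995 ± 474 CPM and Endothelial cells 805 ± 386 CPM. Timp2 went the other way between the fibroblast types. It had 1278 ± 54.9 CPM in Fibroblast and 523 ± 44.1 CPM in Fibroblast 2, lower in 6 of 6 samples at 0.378 to 0.435 of the Fibroblast level. Timp1 in Fibroblast 2 was 1.71 to 1.96 times the Fibroblast level in each sample.

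Timp3 had its highest mean in Pericyte-annotated cells (1168 ± 497 CPM), which overlapped Fibroblast (1033 ± 95.3 CPM). Without Dram2 ko/ko replicate 1, where 17 cells carried the Pericyte annotation, that order turned (log2 ratio −0.034, against 0.18 with all samples), and Fibroblast did not overlap Fibroblast proliferating (832 ± 53.3 CPM). RPE had 308 ± 62.6 CPM and Fibroblast-like the lowest level, 211 ± 34.3 CPM, with overlapping samples. The 3′ end of Timp3 shares a run with Syn3, which lies over it on the opposite strand, and Timp1 lies opposite Syn1. Timp2 overlaps Cep295nl on its own strand. The genes most like the inhibitors were Aif1l, Ltbp2 and Tead1 for Timp1 (r = 0.85, 0.84 and 0.84), Scpep1, Zyx and Vit for Timp2 (r = 0.92, 0.90 and 0.87) and Extl3, Plod3 and Zswim6 for Timp3 (r = 0.85, 0.85 and 0.83).

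**Figure D1:**
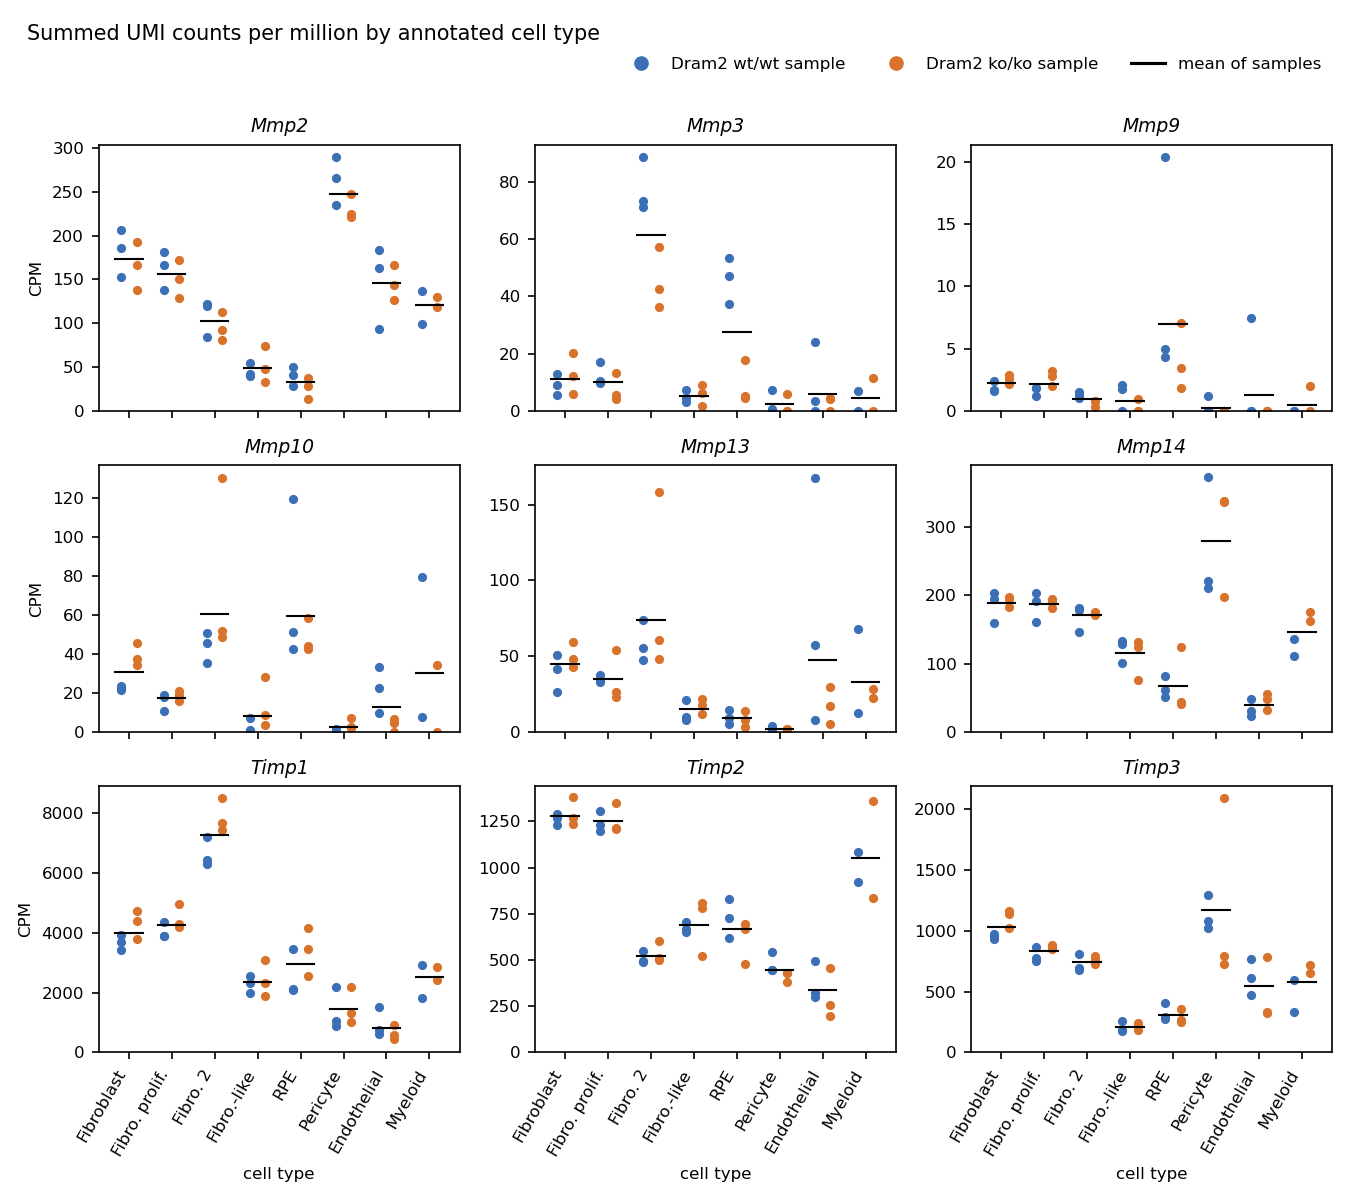
CPM of the 9 members (y axis, linear from 0, 1 scale per panel) in the 8 annotated cell types (x axis). Each point is 1 sample, blue for Dram2 wt/wt and orange for Dram2 ko/ko, and the bar is the mean of all samples; Fibroblast 2 leads for Mmp3, Mmp13 and Timp1, and Fibroblast 2 lies below Fibroblast for Timp2 in all 6 samples.

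The 3 chromosome 9 members had another pattern. Mmp3 had 61.5 ± 19.98 CPM in Fibroblast 2, 27.5 ± 21.3 CPM in RPE and 11.0 ± 5.45 CPM in Fibroblast. Fibroblast 2 was above Fibroblast in 6 of 6 samples (2.82 to 13.2 times) and above RPE in 6 of 6, although the ranges overlapped. The highest ratio over Fibroblast was in Dram2 wt/wt replicate 1, where 1 Fibroblast 2 cell held 62.3% of that type's Mmp3 UMIs. Without the top cell of each type, that sample had 27.7 CPM in Fibroblast 2 and 4.94 CPM in Fibroblast. Mmp10 had 60.4 ± 34.8 CPM in Fibroblast 2 and 59.7 ± 30.1 CPM in RPE, which could not be ordered (3 of 6 samples each way), and 30.8 ± 9.73 CPM in Fibroblast. Mmp13 had 73.8 ± 42.5 CPM in Fibroblast 2, 47.2 ± 61.9 CPM in Endothelial and 44.8 ± 11.0 CPM in Fibroblast, all overlapping, and only 8.70 ± 4.62 CPM in RPE, below Fibroblast in 6 of 6 samples. Pericyte-annotated cells, which led for Mmp2 and Mmp14, had the lowest means for these 3 genes, at 2.30, 2.17 and 1.63 CPM, each with samples that overlapped the next type. One caution applies to Mmp3, whose last bases share a run with Gm15242.

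Mmp9 was scarce. It had 7.01 ± 6.77 CPM in RPE, where Dram2 wt/wt replicate 1 held 20.4 CPM and the other samples 1.86 to 7.02 CPM, and it had 2.21 ± 0.501 CPM in Fibroblast. Every neighbouring pair of types overlapped. By fibroblast sub-cluster, its highest mean was 14.2 ± 13.3 CPM in sub-cluster 7 (0.831 to 36.4 CPM by sample). Sub-cluster 4 was next at 6.87 ± 6.32 CPM, with overlapping samples. The nearest genes in pattern were Gm12153, Popdc3 and Lrp2 for Mmp9 (r = 0.77, 0.75 and 0.74), Medag, C1qtnf4 and Pygm for Mmp3 (r = 0.81, 0.80 and 0.78), Rbp4, Mex3c and Pcnx4 for Mmp10 (r = 0.85, 0.82 and 0.80) and Ptgs2 and Osmr for Mmp13 (r = 0.84 and 0.83). Ptgs2 makes prostaglandins and Osmr is the oncostatin M receptor.

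The share of cells with a UMI gave another view of the scarce members. With each cell thinned to 4000 UMIs, Mmp10 had a UMI in 648 of 12578 Fibroblast cells (5.15%, 95% Wilson interval 4.78 to 5.55), in 137 of 1458 RPE cells (9.40%, 8.004 to 11.0) and in 0 of 307 Pericyte-annotated cells, which at this thinned depth allows up to 0.977% of cells with a UMI. Mmp13 was found in 6.11% of Fibroblast and 0.326% of Pericyte-annotated cells, and Mmp3 in 1.66% of Fibroblast, 4.61% of Fibroblast 2 and 1.30% of Pericyte-annotated cells. These shares pool the cells of all samples, while the CPM values are means of samples. Mmp3 was found in 4.60% of RPE cells (1.0 to 7.91% by sample, against 3.29 to 7.04% in Fibroblast 2), and Mmp13 in 6.25% of Fibroblast 2 cells. Myeloid cells could not be ranked by share, since 81 cells gave 0 to 31.03% by sample for Mmp13 and 0 to 27.6% for Mmp10. Before thinning, Mmp10 had a UMI in 12.8% of Fibroblast, 25.1% of RPE and 1.95% of Pericyte-annotated cells, whose median depths were 26108, 22905.5 and 13598 UMIs. Mmp9 had a UMI in 0.509% of Fibroblast cells and in 0 of 307 Pericyte-annotated cells. Mmp2 was detected in 46.5% and Mmp14 in 51.9% of Fibroblast cells, and Timp1, Timp2 and Timp3 in 98.4%, 97.7% and 81.4%. All intervals and limits cover counting error only, and PCR copies are removed by the UMIs.

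The genes of the chromosome 9 run were not counted alike. Mmp12, the macrophage elastase, reached 128 ± 94.7 CPM in Myeloid cells (n = 4) and had 0.548 CPM or less in every other type. Mmp8, the neutrophil collagenase, had 33.5 ± 20.1 CPM in Myeloid cells and 2.77 CPM in Fibroblast 2, the next. Mmp27 reached 2.65 CPM in Myeloid cells. Mmp1a, Mmp1b, Mmp20 and Mmp7 had 8, 3, 3 and 1 UMIs in all 25428 cells. Windows with both motifs thus occurred in genes that were counted (Mmp3, Mmp10, Mmp13, Mmp12) and in genes that were hardly counted (Mmp1a, Mmp1b, Mmp7).

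**Figure D2:**
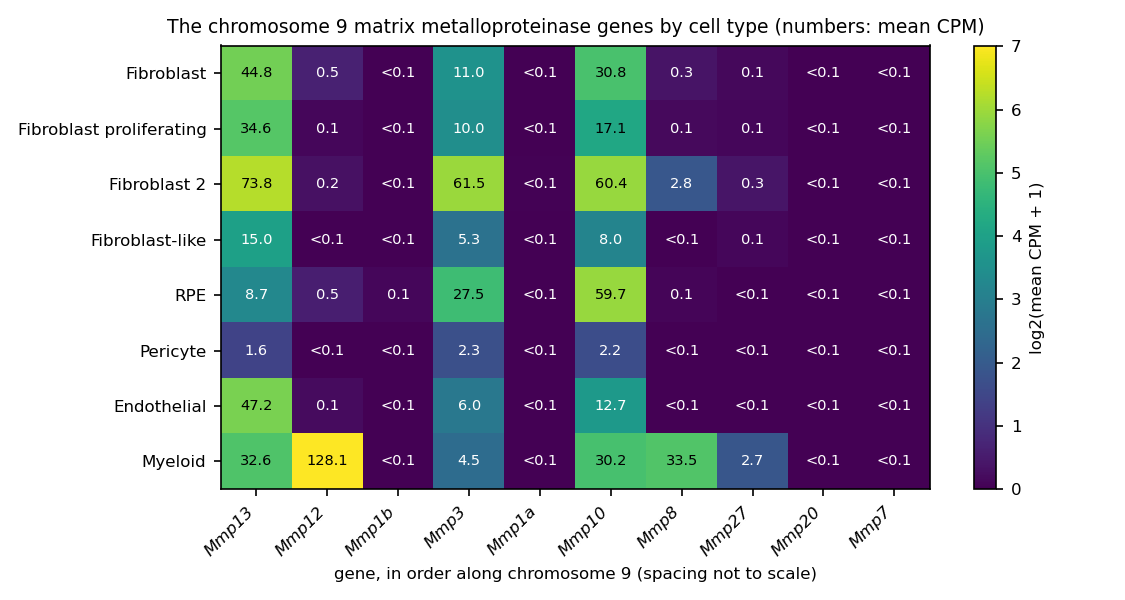
Mean CPM over samples (printed in each field, colour on a log2(mean CPM + 1) scale) of the 10 MMP genes of the chromosome 9 run, in their order along the chromosome (x axis), by cell type (y axis). Mmp13, Mmp3 and Mmp10 are counted in the fibroblast rows, and Mmp10 and Mmp3 also in RPE (59.7 and 27.5 CPM). Mmp13 has 47.2 CPM in Endothelial (4.80 to 168 CPM by sample). Mmp12 and Mmp8 are mainly in the Myeloid row (128 and 33.5 CPM). Mmp13 and Mmp10 have 32.6 and 30.2 CPM there (12.3 to 67.6 and 0 to 79.5 CPM by sample). Myeloid sums also held fibroblast genes, and the part of this in these levels was not tested. Mmp1a, Mmp1b, Mmp20 and Mmp7 are near 0 in every type.

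Of the other pathway genes, 7 of 17 other MMPs reached 10 CPM in a cell type, and 2 of these were highest in Fibroblast, Mmp11 at 15.2 CPM and the membrane-type Mmp16 at 43.7 CPM. Of the ADAM and ADAMTS proteases, 15 of 26 reached 10 CPM, and 7 were highest in Pericyte-annotated cells, with Adamts1 at 719 CPM and Adamts5 at 593 CPM. The plasmin inhibitor Tfpi2 had 224 CPM in Fibroblast 2, 68.6 CPM in Fibroblast and 459 CPM in Endothelial cells. All 7 AP-1 subunits reached 10 CPM. Fosl1 and Fosl2 were highest in Fibroblast 2 at 107 and 158 CPM, against 74.4 and 92.4 CPM in Fibroblast. Junb and Jund were highest in Endothelial cells (522 and 638 CPM), Jun had 522 CPM there and 520.1 CPM in Pericyte-annotated cells, Fos in Pericyte-annotated cells (141 CPM) and Fosb in Myeloid cells (14.9 CPM). Bsg, the MMP inducer also named basigin or EMMPRIN, was highest in RPE at 1932 CPM.

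Within the fibroblasts, sub-cluster 3 held the highest levels of Mmp3, Mmp10, Mmp13 and Timp1. It had 3790 cells, of which 78.2% were annotated Fibroblast 2 and 21.4% Fibroblast, and 98.2% of Fibroblast 2 cells lay in it. Mmp3 had 65.5 ± 23.5 CPM there and 15.7 ± 8.08 CPM in sub-cluster 6, the next, with no overlap. Mmp10 had 70.2 ± 27.9 CPM and Mmp13 93.8 ± 37.6 CPM, both overlapping the next sub-cluster. Over sub-cluster 1, the largest, Mmp3 was 5.15 to 18.4 times higher, Mmp10 1.81 to 3.73 times and Mmp13 1.81 to 4.29 times, in 6 of 6 samples each. In Dram2 wt/wt replicate 1, 1 cell held 57.1% of the Mmp3 UMIs of sub-cluster 3. That sample had 62.7 CPM there, and 26.9 CPM without this cell. Timp1 had 7276 ± 834 CPM, above every sample of sub-cluster 2 (4282 ± 383 CPM), while Timp2 had 667 ± 45.4 CPM in sub-cluster 3, lower than in sub-cluster 1 in 6 of 6 samples.

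Sub-cluster 6 stood out for the broadly expressed members. Mmp2 had 262 ± 63.0 CPM, Mmp14 349 ± 52.3 CPM, Timp2 1623 ± 218 CPM and Timp3 1461 ± 231 CPM there, each the highest mean among the sub-clusters. Of the 4, only Mmp14 did not overlap the next sub-cluster (sub-cluster 4, 234 ± 23.1 CPM). The median cell of sub-cluster 6 had 17.1 to 21.5% mitochondrial UMIs, against 1.70 to 4.15% in sub-clusters 1 to 4, and the part of this difference in the levels was not tested. In sub-cluster 5 Timp3 fell to 221 ± 35.9 CPM, 0.172 to 0.306 of the level in sub-cluster 1. Cells of both sub-clusters were shallow, with a median of 5856 UMIs in sub-cluster 5 and 4766 in sub-cluster 6, against 27032 in sub-cluster 1. The part of this depth in the levels was not tested.

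**Figure D3:**
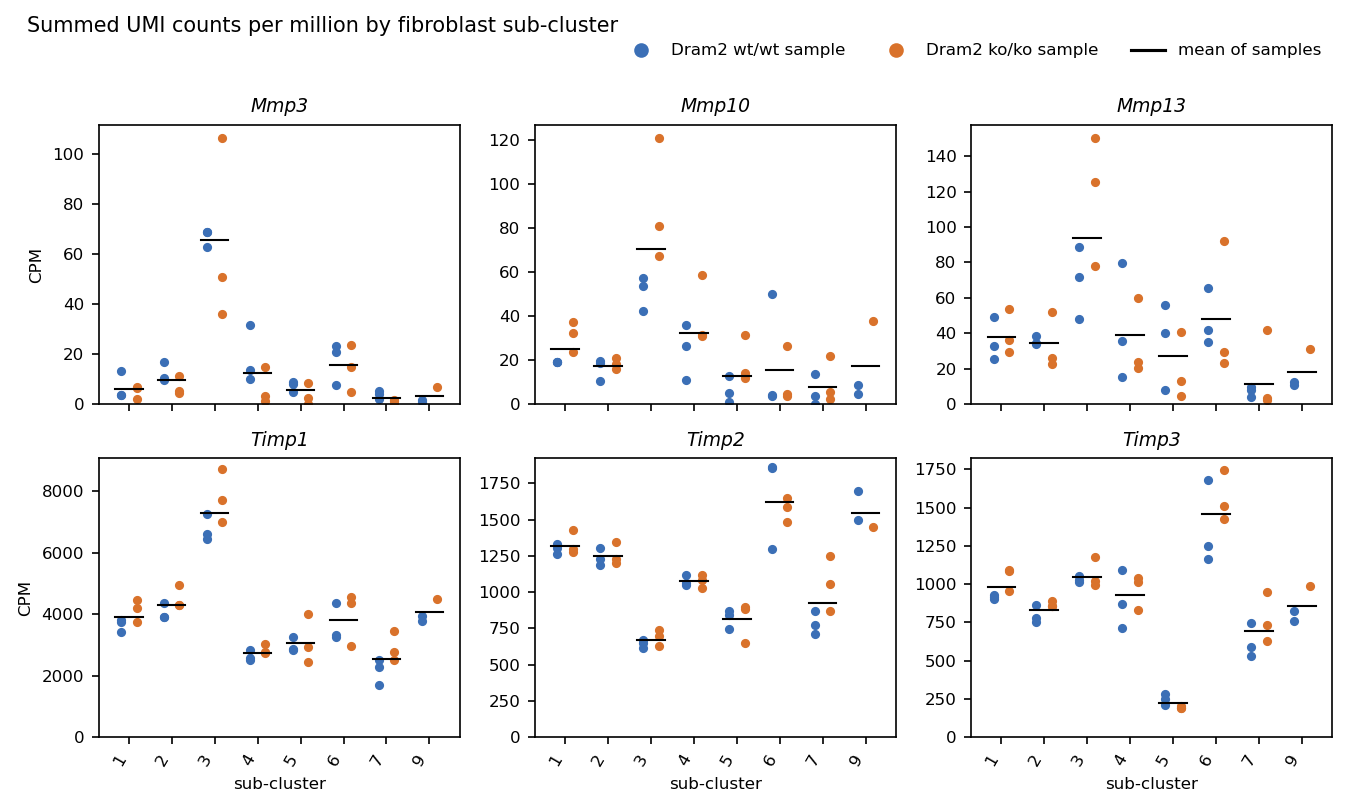
CPM (y axis, linear from 0) of the chromosome 9 members and the inhibitors in fibroblast sub-clusters 1 to 7 and 9 (x axis). Points are samples (blue, Dram2 wt/wt; orange, Dram2 ko/ko) and bars means; sub-cluster 3 is highest for Mmp3, Mmp10, Mmp13 and Timp1, and Timp2 is lower there than in sub-cluster 1 in all 6 samples.

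The chromosome 9 members were concentrated in few cells. In 11663 Fibroblast cells thinned to 8000 UMIs each, cells with 10 or more UMIs of a gene held 39.5% of Mmp10 UMIs (59 cells), 55.6% of Mmp13 UMIs (107 cells) and 53.4% of Mmp3 UMIs (18 cells), although the mean cell held only 0.251, 0.367 and 0.0995 UMIs of them. For Mmp2 and Mmp14, with means of 1.38 and 1.57 UMIs, such cells held 0.485 and 1.15%. The variance over the mean was 10.7, 22.7 and 17.4 (median of samples) for Mmp10, Mmp13 and Mmp3, 1.45 and 1.43 for Mmp2 and Mmp14 and 3.43 for Mmp9. In sub-cluster 1 alone it was 12.1, 20.2 and 4.36 for Mmp10, Mmp13 and Mmp3. Cells with 10 or more UMIs there held 35.7, 52.8 and 27.2% of their UMIs (28, 71 and 5 cells). Of all Fibroblast cells, 6.41% lay in sub-cluster 3, where these genes were highest. The most loaded Fibroblast cells held 132 Mmp10, 105 Mmp13 and 173 Mmp3 UMIs out of their 8000. Timp1 (variance over mean 25.0) and Timp3 (14.9) also varied widely, but were present in 99.6% and 91.1% of these cells. In all Fibroblast cells of each sample before thinning, 8 to 30 cells held as many Mmp10 UMIs as all the others together. For Mmp3, 2 to 12 cells did so.

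Cells with 1 of the 3 genes held the others more often than cells without it. Mmp10 was detected in 37.5% of Fibroblast cells with Mmp13 (29.7 to 40.1% by sample) and in 5.36% of those without (4.86 to 5.98%), higher in 6 of 6 samples. Mmp3 was found in 15.0% of cells with Mmp13 and 1.55% of cells without, and in 12.1% with Mmp10 and 1.82% without. Over cells of a sample, Pearson r of log2(count + 1), with counts thinned to 8000 UMIs, was 0.349 to 0.503 for Mmp10 and Mmp13. Most cells with any of them held just 1, however. Of 11663 cells, 1188 held 1 of the 3 genes, 357 held 2, 80 held all 3 (0.686%) and 10038 held none (86.1%). All 3 were held by 0.467% of sub-cluster 1 cells and 1.87% of sub-cluster 3 cells. Fibroblast cells lay in both sub-clusters, and the part of this in the shares above was not tested. The thinned cells with and without Mmp10 had had 27748 and 27543.5 UMIs at the median before thinning.

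Detection of Mmp2 was not higher in cells with Mmp13. It was found in 62.2% of cells with Mmp13 and 69.0% of those without, lower with Mmp13 in 6 of 6 samples, and in 69.0% of cells with Mmp14 and 66.7% without. Sub-cluster 3 had a lower Mmp2 level than sub-cluster 1 (115 against 172 CPM). The part of the sub-clusters in the lower share with Mmp13 was not tested. Fibroblast 2 gave the same picture, with Mmp10 in 37.0% of cells with Mmp13 and 6.51% of those without. Among 15461 genes compared over the same Fibroblast cells (not Fibroblast 2) without thinning, by Pearson r of log2 values scaled to each cell's total UMIs, the 2 most like Mmp3 were Mmp13 (mean r = 0.36) and Mmp10 (r = 0.33), and Mmp10 and Mmp13 were each other's most alike gene (r = 0.50). Next came Fmo2 and Dcn for Mmp3 (r = 0.22 and 0.19) and Grem1, a BMP antagonist, for Mmp10 and Mmp13 (r = 0.23 and 0.24). Cells of a sample share a library, and these genes were named after their values were seen.

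**Figure D4:**
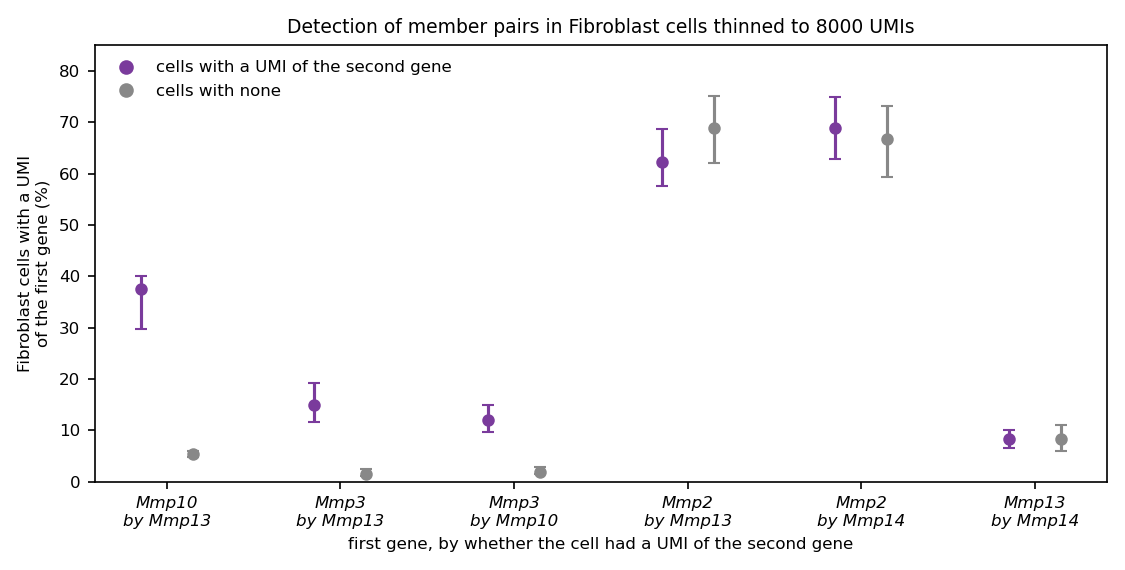
Share of Fibroblast cells, thinned to 8000 UMIs, with a UMI of the first gene (y axis, %), in cells with (purple) and without (grey) a UMI of the second gene, for 6 pairs (x axis). Points are means of the 6 samples and bars run from the lowest to the highest sample; the 3 pairs among Mmp3, Mmp10 and Mmp13 separate (37.5% against 5.36% for Mmp10 by Mmp13) and the pairs with Mmp2 or Mmp14 lie close together.

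Whether loss of Dram2 changed the members was asked with counts summed per sample, over all cells and within types and 8 of 9 sub-clusters. The test was voom-limma with Benjamini-Hochberg adjustment over all genes tested, called at an adjusted p under 0.05. None of the members was called in any of 17 comparisons (125 tests of a member, of which 22, or 17.6%, had an unadjusted p under 0.05, against 6.39% of all tests; edgeR called 0 and DESeq2 7, or 5.6%, against 1.13%). The same gene counts in several of these comparisons, since sub-clusters and types share cells. The background of the voom-limma calls was low as well. Of all genes tested, 0% were called over the whole sample, 0.00503% in Fibroblast, 0.624% in Fibroblast proliferating, 0.222% in Fibroblast 2, 0.0118% in Pericyte-annotated cells, 0.0296% in Myeloid cells and 0% in Fibroblast-like, RPE and Endothelial cells. By sub-cluster it was 0.32% in sub-cluster 1, 0.55% in 2, 0.00634% in 3, 0.722% in 4, 0.402% in 7 and 0% in 5, 6 and 8. The Myeloid comparison had 2 samples against 2, and 28 member tests were not made because the counts were too low.

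Mmp10 came nearest. Over the whole sample the Dram2 wt/wt values were 24.7, 23.3 and 25.4 CPM, and the Dram2 ko/ko values 37.1, 44.4 and 34.2 CPM. Every Dram2 ko/ko value lay above every Dram2 wt/wt value, as for 4.2% of all genes tested. The log2 difference was 0.67 (SE 0.12), with an adjusted p of 0.0959 in voom-limma. In batch 1 alone, without Dram2 ko/ko replicate 3, it was 0.76 and the adjusted p 0.037, where 0.507% of genes were called. DESeq2 called it (adjusted p 0.000383; 1.68% of genes called). Over a whole sample, a change in the number of cells of a type and a change in RNA per cell cannot be told apart.

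Within Fibroblast cells Mmp10 had 23.7, 21.6 and 22.5 CPM in Dram2 wt/wt and 45.6, 37.1 and 34.1 CPM in Dram2 ko/ko. The groups did not overlap, with Dram2 ko/ko higher, as for 4.57% of genes. The log2 difference was 0.77 (SE 0.11, voom-limma adjusted p 0.0586), and it was called in 5 of 15 alternatives, with adjusted p from 8.98e-07 to 0.26. These alternatives share samples and are not independent. Batch as a covariate and leaving out Dram2 ko/ko replicate 3, the only sample of batch 2, are in effect 1 comparison. In batch 1 alone the difference was 0.88 and the adjusted p 0.0179 (0.734% of genes called). The lowest adjusted p was that of DESeq2, which called 1.61% of genes. Of Fibroblast cells, 6.41% lay in sub-cluster 3, where the mean Mmp10 level was 2.81 times that of sub-cluster 1. The part of sub-cluster numbers in the Fibroblast difference was not tested.

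Mmp10 was read in the fibroblast sub-clusters as well. Sub-cluster 1 held 76.9% of Fibroblast cells, so its values are not separate from those above. In sub-cluster 1 it had 19.2, 18.8 and 19.0 CPM in Dram2 wt/wt and 37.0, 32.3 and 23.5 CPM in Dram2 ko/ko (log2 difference 0.68, SE 0.15, voom-limma adjusted p 0.121; 4.5% of genes did not overlap this way). In batch 1 alone the adjusted p was 0.0107, with 0.82% of genes called, and DESeq2 gave 0.00142, with 1.58% called. In sub-cluster 3 it had 57.2, 53.3 and 42.2 CPM against 67.0, 120.7 and 80.8 CPM (log2 difference 0.79, SE 0.22, voom-limma adjusted p 0.32; background 4.09%). DESeq2 called Mmp10 there (adjusted p 0.00851; 1.13% of genes called) and also Mmp13 (log2 difference 0.79, DESeq2 adjusted p 0.0343), whose samples overlapped at 47.8, 88.8 and 72.0 CPM against 150.4, 78.1 and 125.6 CPM.

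RPE and Fibroblast 2 held the highest Mmp10 levels, and their genotypes overlapped. In RPE it had 42.7, 51.0 and 119.8 CPM in Dram2 wt/wt and 43.9, 42.3 and 58.2 CPM in Dram2 ko/ko (log2 difference −0.40, SE 0.38, voom-limma adjusted p 1.00). In Fibroblast 2 it had 45.5, 50.7 and 35.3 CPM against 52.0, 130.4 and 48.4 CPM (log2 difference 0.69, SE 0.34, voom-limma adjusted p 0.887).

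The share of Fibroblast cells with an Mmp10 UMI, thinned to 8000 UMIs, was compared next. It was 7.69, 7.48 and 7.49% in Dram2 wt/wt and 9.50, 7.53 and 8.38% in Dram2 ko/ko, a difference of 0.915 percentage points (p = 0.2 in a two-sided exact permutation test, which with 3 samples a group cannot go below 0.1). The size of this difference depended on the setting. It was 1.63 points when cells were thinned to 4000 UMIs and 0.789 points for cells with 2 or more UMIs (both at the exact permutation p of 0.1), 1.83 points without thinning (exact permutation p 0.7), 0.400 points without Dram2 ko/ko replicate 1 and 1.38 points without Dram2 ko/ko replicate 2. For Mmp3 the difference was −0.164 points (exact permutation p 0.8) and for Mmp13 0.781 points (exact permutation p 0.6). The other 6 members had exact permutation p-values from 0.3 to 0.8.

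Mmp3 had lower sums in Dram2 ko/ko in Fibroblast 2 and RPE, and in both, 1 cell of Dram2 wt/wt replicate 1 held most of that sample's Mmp3 UMIs. In Fibroblast 2 it had 73.4, 88.6 and 71.3 CPM in Dram2 wt/wt and 36.1, 42.6 and 57.0 CPM in Dram2 ko/ko, without overlap, as for 6.6% of genes in that direction. The log2 difference was −0.80 (SE 0.16, voom-limma adjusted p 0.103), and −0.95 with an adjusted p of 0.0177 in batch 1 alone, where 0.325% of genes were called. DESeq2 called it (adjusted p 0.0021; 1.13% of genes called). In Dram2 wt/wt replicate 1, 1 cell held 659 of the 1058 Mmp3 UMIs (62.3%). Without the cell with the most Mmp3 UMIs in each sample, an alternative added after the data were seen, the values were 27.7, 57.4 and 57.4 CPM against 30.0, 29.6 and 42.8 CPM. Dram2 wt/wt replicate 1 then had the lowest value of all 6 samples, and the log2 ratio of the mean CPM went from −0.78 to −0.48.

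In RPE cells Mmp3 had 37.3, 53.5 and 47.0 CPM in Dram2 wt/wt and 4.56, 5.11 and 17.6 CPM in Dram2 ko/ko. The groups did not overlap (5.09% of genes in that direction), with a log2 difference of −2.02 (SE 0.41, voom-limma adjusted p 0.302). The difference from the effect in Fibroblast was −2.58 on the log2 scale (SE 0.48, voom-limma adjusted p 0.0838; 0% of genes passed). That difference did pass with edgeR's quasi-likelihood test (adjusted p 0.000489; 0.0138% of genes) and without Dram2 ko/ko replicate 1 (voom-limma adjusted p 0.0494; 0.0284% of genes), and its adjusted p was 0.123 to 0.565 with any other sample left out. DESeq2 called the effect in RPE itself (adjusted p 0.00432; 0.162% of genes called). Here 1 cell of Dram2 wt/wt replicate 1 held 64 of the sample's 75 Mmp3 UMIs, and 1 cell of Dram2 ko/ko replicate 2 held 6 of 11. Without the top cell of each sample the values were 5.74, 39.4 and 30.2 CPM against 3.17, 2.34 and 13.4 CPM. Dram2 wt/wt replicate 1 fell into the Dram2 ko/ko range while the other Dram2 wt/wt samples stayed above it, and the log2 ratio of the mean CPM was −2.00, against −2.34 with all cells.

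In Fibroblast proliferating cells and in sub-cluster 2 a member passed in batch 1 alone while the samples overlapped. These are nearly the same cells and not separate results. Sub-cluster 2 held 94.3% of Fibroblast proliferating cells, and 98.7% of its cells had that annotation. Mmp3 in Fibroblast proliferating cells had 9.77, 17.0 and 10.3 CPM in Dram2 wt/wt and 4.29, 5.39 and 13.3 CPM in Dram2 ko/ko, the last being the batch 2 sample. The log2 difference was −0.84 (voom-limma adjusted p 0.705) over all samples and −1.30 (voom-limma adjusted p 0.0417; 1.21% of genes called) in batch 1 alone. In sub-cluster 2 the values in batch 1 alone were −1.32 for Mmp3 and −0.54 for Mmp13 (voom-limma adjusted p 0.0383 and 0.046; 1.08% of genes called), against −0.91 and −0.18 over all samples (voom-limma adjusted p 0.467 and 0.964).

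For Mmp10, leaving out the top cells left the groups apart in Fibroblast, over the whole sample and in sub-cluster 3. Without the top cell it had 22.4, 19.2 and 21.6 CPM in Dram2 wt/wt Fibroblast cells and 37.7, 31.8 and 30.1 CPM in Dram2 ko/ko. In Fibroblast 2 and RPE the groups overlapped with and without the top cells. No cell held more than 17.4% of a sample's Mmp10 UMIs in Fibroblast, and 11.5 to 44.3% of the Mmp3 UMIs were in 1 cell.

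**Figure D5:**
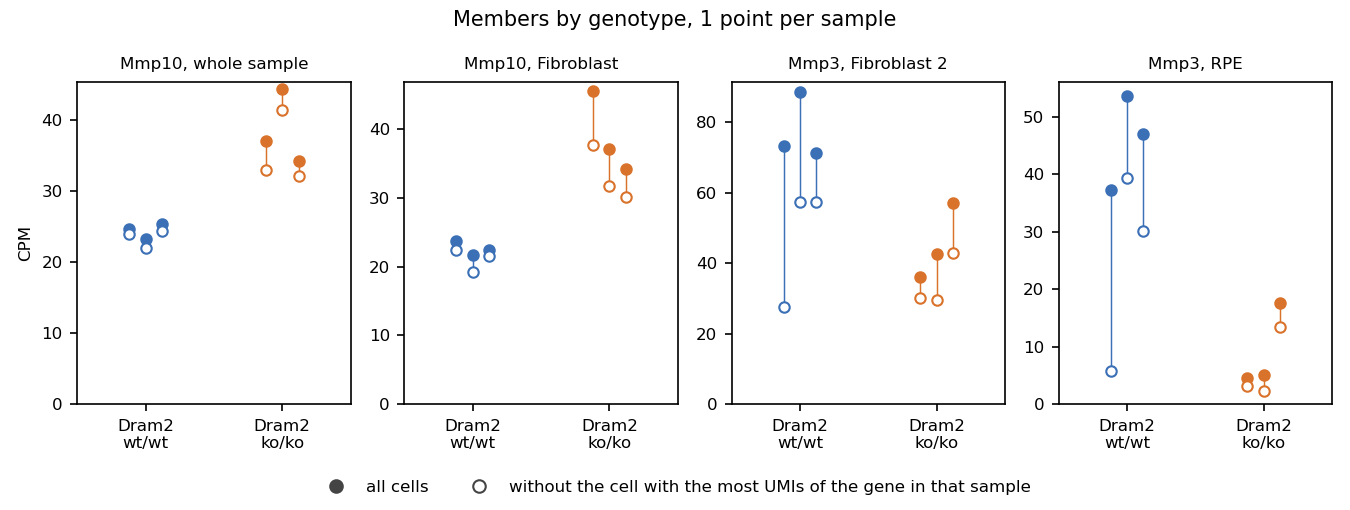
CPM per sample (y axis, linear from 0) by genotype (x axis) of Mmp10 over all cells and in Fibroblast, and of Mmp3 in Fibroblast 2 and RPE. Filled points are all cells and open points leave out the cell with the most UMIs of the gene in that sample; Dram2 ko/ko lies above Dram2 wt/wt for Mmp10 with both, while for Mmp3 the open point of Dram2 wt/wt replicate 1 is the lowest of all samples in Fibroblast 2 and lies within the Dram2 ko/ko range in RPE (log2 ratio of the mean CPM −0.78 to −0.48 in Fibroblast 2 and −2.34 to −2.00 in RPE).

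No other member passed the test either. Over the whole sample Timp1 had 3949 ± 303 CPM in Dram2 wt/wt (SD, n = 3) and 4714 ± 476 CPM in Dram2 ko/ko (log2 difference 0.27, voom-limma adjusted p 0.661, overlapping). In Fibroblast 2 it had 7227, 6316 and 6449 CPM against 7687, 8511 and 7449 CPM, without overlap as for 4.81% of genes (log2 difference 0.26, voom-limma adjusted p 0.827). Timp3 in Fibroblast had 957 ± 20.1 CPM and 1108 ± 73.3 CPM (log2 difference 0.21, voom-limma adjusted p 0.569), without overlap as for 4.57% of genes. In sub-cluster 5, where its level was low, it had 248, 281 and 208 CPM against 194, 207 and 189 CPM (log2 difference −0.35, voom-limma adjusted p 0.549; 6.2% of genes did not overlap in that direction). Mmp9 in Fibroblast proliferating had 1.80, 1.22 and 1.87 CPM against 1.99, 3.20 and 2.82 CPM (log2 difference 0.72, voom-limma adjusted p 0.471; 4.76% of genes did not overlap this way). Mmp2, Mmp14 and Timp2 had log2 differences of −0.17, 0.05 and −0.02 over the whole sample, with overlapping samples.

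The other genes of the pathway gave 632 tests in these comparisons, from lists of other MMPs, other inhibitors, ADAM and ADAMTS proteases, the plasminogen system, MMP activation and docking and AP-1 subunits. By voom-limma 0 were called higher and 0 lower, 32 (5.06%) had an unadjusted p under 0.05, against 6.39% of all tests, and edgeR and DESeq2 called 0. By list the share with an unadjusted p under 0.05 ran from 1.82% (MMP activation and docking) to 21.9% (other inhibitors, 7 of 32 tests). In batch 1 alone 4 tests of 2 genes passed, in comparisons where 0.734 to 1.21% of all genes did. The plasminogen activator inhibitor Serpinb2 had a log2 difference of 0.56 in Fibroblast and 0.57 in sub-cluster 1 (voom-limma adjusted p 0.0368 and 0.0333), and Tfpi2 of 0.63 in both Fibroblast proliferating and sub-cluster 2 (voom-limma adjusted p 0.0464 and 0.046). Of sub-cluster 1 cells 97.6% were annotated Fibroblast, and of sub-cluster 2 cells 98.7% Fibroblast proliferating. Each pair thus rests largely on the same cells.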

How the data were processed

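UMI counts per gene and cell were made by the authors with Cell Ranger 3.1.0 on GRCm38, per the submitters' processing notes, with exonic reads only. The annotation release was not given in the sources used here. The deposited counts were not normalised. A deposited cell table gave each cell's sample, type (Louvain clusters named by the authors after integration) and fibroblast sub-cluster. All 25428 cells entered the main values. Cells are named without their barcodes, so barcodes shared between libraries could not be counted. No doublet caller was run, and an alternative leaves out the 5% of cells with the most UMIs in each sample.

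Counts were summed per sample, and per sample and type or sub-cluster of 10 or more cells. After a filterByExpr filter and TMM scaling (edgeR 4.0.16), each comparison was fitted by voom and limma 3.58.1 in R 4.3.3, with genotype as the only term. Benjamini-Hochberg adjustment ran over all genes tested, with calls at 0.05. Levels are means ± SD of CPM over samples. Levels across types and sub-clusters are descriptions, since types and sub-clusters were drawn from the same cells. For detection, cells were thinned to 4000 or 8000 UMIs and shallower cells left out. The test of shares between genotypes was a two-sided exact permutation test, whose p cannot go below 0.1. Promoter windows came from RefSeq (GRCm38.p6) for 7 of 9 members, and positions from the GENCODE annotation of GRCm38.

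Alternatives were edgeR's quasi-likelihood test, DESeq2 1.42.0, library size alone, no count filter, batch or replicate number as a term, cell filters and each sample left out in turn. All 9 members were named in every comparison, with the 3 genes of highest r per member among genes with 10 CPM or more in a type (1 such gene is not reported here), and pathway genes that passed the test. The members and lists were chosen with earlier results of these data known.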

Additional observations from a re-analysis of the deposited data

Results flagged for a closer look

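In 2 genes the Dram2 ko/ko samples lay on opposite sides of the Dram2 wt/wt samples in 2 groups of cells, and neither difference was tested. Mmp9 had a log2 difference (Dram2 ko/ko minus Dram2 wt/wt) of 0.72 in Fibroblast proliferating cells and −1.01 in Fibroblast 2, where its level was 0.334 to 1.48 CPM. Such a separation was found for 4.76% of genes (higher) and 6.6% (lower). Timp3 had a log2 difference of 0.18 in sub-cluster 1 and −0.35 in sub-cluster 5, where 4.5% (higher) and 6.2% (lower) of genes separated this way. None of these 4 effects was called by voom-limma.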

How the results depend on the processing

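Of 833 values computed under alternatives for 82 results, 744 were labelled as the same as the main value. For effects this meant the same direction and side of the threshold, for levels a value within the spread. For numbers of calls it meant an equal or close number. Shares of Fibroblast cells could change direction only, since their exact permutation p cannot go below 0.1 and so could not pass the threshold. The 744 therefore include values whose side was fixed in advance. No member was called in the main comparisons. In the sums over cell types and over sub-clusters below, the number of members counts calls. A gene called in several cell types or sub-clusters is counted each time. With DESeq2 the member calls were Mmp10 and Mmp3 over cell types, and Mmp10 and Mmp13 over sub-clusters. Over the whole sample the genes called went from 0 to 378 with DESeq2 (1 of them a member, Mmp10), to 118 with batch as a covariate (1 member) and to between 0 and 242 with 1 sample left out (0 to 1 members). Summed over cell types, 150 calls became 84 with edgeR, 887 with DESeq2 (3 members), 93 with library size alone, 504 with no count filter (2 members), 323 with batch as a covariate (3 members) and 19 to 754 with 1 sample left out (0 to 3 members). Summed over sub-clusters, 291 calls became 178 with edgeR, 1041 with DESeq2 (3 members), 744 with no count filter (1 member), 475 with batch as a covariate (3 members) and 28 to 958 with 1 sample left out (0 to 3 members). For the difference from Fibroblast, 3 calls became 0 to 88 with 1 sample left out. Batch 2 held 1 sample, Dram2 ko/ko replicate 3. Batch as a covariate is therefore in effect the same comparison as leaving that sample out, and the 2 do not count separately.

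Same-numbered samples of the genotypes did not deviate together (r = 0.099, −0.43 and 0.028 for numbers 1, 2 and 3). With the replicate block, 34 genes were called over cell types and 66 over sub-clusters.

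Some directions turned. With batch as a covariate, Timp2 over the whole sample had a log2 difference of 0.024 and Mmp3 in Fibroblast −0.019. With 1 sample left out, the log2 difference ran from −0.12 to 0.026 for Timp2 and −0.079 to 0.14 for Mmp14 over the whole sample, in Fibroblast from −0.0045 to 0.87 for Mmp3, −0.057 to 0.13 for Mmp14 and −0.018 to 0.092 for Timp2, from −0.052 to 0.80 for Mmp13 in Fibroblast 2 and from −0.64 to 0.066 for Mmp10 in RPE. The share of Fibroblast cells with a UMI differed by −0.00825 points for Mmp9 when thinned to 4000 UMIs and by −0.00326 points at 2 or more UMIs, and without thinning by −0.0310 points for Timp1, 0.0416 for Timp2 and −0.0464 for Timp3. With 1 sample left out it ran from −0.0714 to 0.203 points for Mmp9, −0.366 to 0.161 for Mmp3, −0.0423 to 1.66 for Mmp13 and −0.506 to 3.31 for Mmp14. The log2 ratio of Timp3 between sub-clusters 6 and 3 was 0.48 in all cells and 0.87 without the filtered cells (under 500 genes or over 20% mitochondrial UMIs). The cause of these changes was not tested. The log2 ratio of Timp2 between sub-clusters 6 and 9 was 0.068, with −0.023 without the 5% of cells with the most UMIs and 0.39 without the filtered cells. Values of Mmp3 and Mmp9 rest on few cells, since 97.4 and 99.0% of Fibroblast cells thinned to 8000 UMIs held none.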
